A study of Mus musculus with 6 samples.

Results

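The genes described here encode the subunits of AMP-activated protein kinase (AMPK) and the kinases that activate it, measured in C2C12 myotubes exposed to sugarcane top ethanolic extract (STEE). They were chosen by gene symbol alone: the catalytic subunits *Prkaa1* and *Prkaa2*, the scaffold subunits *Prkab1* and *Prkab2*, the nucleotide-binding subunits *Prkag1*, *Prkag2* and *Prkag3*, and the upstream kinases *Stk11* and *Camkk2*. Each of the 9 genes had 1 probe set, so they account for 9 of the 22206 probe sets tested and 9 of the 22662 distinct gene symbols on the array.

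C2C12 is a myoblast line from mouse skeletal muscle whose cells fuse into multinucleated myotubes when serum is lowered. All cultures were described as myotubes at 6 days of differentiation, and total RNA was hybridised to Clariom S Mouse arrays, 2 for each of 3 groups. Ctrl-M myotubes were untreated, STEE30-M myotubes received 30 µg/mL STEE for 6 h and STEE50-M myotubes received 50 µg/mL STEE for 6 h. The extract was given in serum-free Opti-MEM from a stock in aqueous ethanol, and the labels do not say whether Ctrl-M cells received the same medium and vehicle, so the extract cannot be told apart from these. The study speaks of biological replicates and the deposited design of arrays in duplicate, so the p-values below measure only spread between these arrays. In the limma fit, the spread of each probe set was drawn towards that of all probe sets.

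AMPK is a heterotrimer that senses a falling energy charge: AMP and ADP bind the γ subunit, the β subunit holds the complex together and can bind glycogen, and the α subunit phosphorylates the targets. LKB1, the product of *Stk11*, phosphorylates the activation loop of the α subunit, and CaMKK2 does so when calcium rises. In skeletal muscle the active kinase promotes glucose uptake and fatty acid oxidation and restrains lipid and protein synthesis, and complexes of α2, β2 and γ3 are characteristic of fast glycolytic fibres. These steps act largely on the proteins, and the arrays measured mRNA only.

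All 9 probe sets lay above the background level, a log2 signal of 5.32. It was set as a practical floor, the 95th percentile over 1500 olfactory, vomeronasal and taste receptor probe sets. The 6 arrays had median log2 signals of 5.70 to 5.77 and correlated pairwise at 0.991 to 0.994. Of 11 myotube markers on the array, 11 were above background, as were 5 of 6 myoblast or reserve cell markers, with *Pax7* below it. None of the adipocyte (0 of 4), endothelial (0 of 3) or hepatocyte (0 of 3) markers was above background, and 1 of 4 macrophage markers was. In such bulk RNA, fewer cells of a type and less RNA per cell cannot be told apart.

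*Prkag3*, which encodes the γ3 subunit of fast skeletal muscle, was the member that stood apart at the higher dose. Its log2 signal was 8.31 and 8.69 on the Ctrl-M arrays, 8.55 and 8.42 on the STEE30-M arrays and 9.05 and 9.18 on the STEE50-M arrays. Both STEE50-M arrays lay above the other 4, while the STEE30-M arrays lay within the range of Ctrl-M. The fitted log2 fold change was 0.62 for STEE50-M against Ctrl-M (standard error 0.22, 95% interval 0.11 to 1.12, a linear fold of 1.53), with an unadjusted p of 0.0220 in the limma fit across all probe sets. After Benjamini-Hochberg adjustment in limma the p was 0.952, so this difference did not pass an adjusted threshold. Against STEE30-M the STEE50-M value was 0.63 (interval 0.13 to 1.13, unadjusted limma p of 0.0198, adjusted p = 0.997). STEE30-M against Ctrl-M was -0.02 for this gene (interval -0.52 to 0.49). The call against Ctrl-M was lost when Ctrl-M replicate 1, the lower control array, was left out (log2 fold change 0.43, unadjusted limma p 0.169) or when STEE50-M replicate 2 was (0.55, p 0.0871 in limma). The call against STEE30-M was lost if STEE30-M replicate 2 or STEE50-M replicate 2 was left out (0.57 for each). In the authors' deposited group averages in log2, which have a narrower spread, STEE50-M was 0.27 above Ctrl-M and 0.28 above STEE30-M.

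The position of *Prkag3* is on mouse chromosome 1 (74738922 to 74749471, minus strand, GRCm38.p6, the outer span over its transcripts). Of the other members, *Prkab2* lies on chromosome 3, *Prkaa2* on 4, *Prkab1*, *Prkag2* and *Camkk2* on 5, *Stk11* on 10, and *Prkaa1* and *Prkag1* on 15. The RefSeq start window of *Prkag3*, 250 bases before to 50 bases after the start, is shown in part because this subunit is muscle-restricted and was the one that passed the unadjusted thresholds. The stretch at chr1:74748978-74749007 on the minus strand holds the E-box CAGCTG, a hexamer bound by myogenic factors such as MyoD and myogenin, in capitals.
Prkag3: gcagtgcgggaaCAGCTGcgggttaagcgc
The hexamer, which reads the same on both strands, begins 40 bases before the start used for this window, which lies inside the outer span given above. It was found in 1 of 11 start windows of the 9 genes, that of *Prkag3*, and in 16.3% of all 32851 mouse windows of the same length. The match is a description of the letters and not evidence of binding.

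*Prkag1*, the γ subunit found in most tissues, was the steadiest of the members. It read 12.15 and 12.12 in Ctrl-M, 12.18 and 12.25 in STEE30-M and 12.20 and 12.14 in STEE50-M, so the 6 arrays spanned 0.13 on the log2 scale. Its pooled replicate SD of 0.04 lay at the 0.82nd percentile of all probe sets. Its intervals rest mostly on the spread shared across probe sets, with a standard error of 0.20. Both STEE30-M arrays were above both Ctrl-M arrays, by a log2 fold change of 0.08 (interval -0.37 to 0.53, adjusted p = 0.998 in limma), and STEE50-M overlapped both. *Prkag2*, whose γ2 subunit is prominent in the heart, read 8.18 and 8.41 in Ctrl-M, 8.38 and 8.44 in STEE30-M and 8.23 on both arrays of STEE50-M. The STEE50-M arrays lay below the STEE30-M arrays (log2 difference -0.18, interval -0.65 to 0.29, adjusted p = 0.997 in limma), and Ctrl-M overlapped both doses.

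Among the catalytic subunits, *Prkaa1*, which encodes the widely expressed α1, passed no threshold. Its log2 signal was 12.69 and 12.78 in Ctrl-M, 12.65 and 12.46 in STEE30-M and 12.51 and 12.74 in STEE50-M. Both STEE30-M arrays lay just below both Ctrl-M arrays, with a log2 fold change of -0.18 (interval -0.66 to 0.30, adjusted p = 0.998 in limma), and STEE50-M overlapped both other groups. *Prkaa2*, which encodes the α2 subunit of muscle and liver, read 9.27 and 9.66 in Ctrl-M, 9.27 and 9.86 in STEE30-M and 9.14 and 10.02 in STEE50-M. All 3 groups overlapped, and the spread within a group exceeded the differences between group means. Its log2 fold changes were 0.10 for STEE30-M against Ctrl-M (interval -0.66 to 0.86) and 0.12 for STEE50-M against Ctrl-M (interval -0.64 to 0.87). Its pooled replicate SD of 0.46 was at the 91.7th percentile of all probe sets, and its intervals were the widest among the 9 genes.

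The scaffold subunits did not separate the groups either. *Prkab1*, encoding the widely expressed β1, read 9.02 and 9.26 in Ctrl-M, 9.22 and 8.99 in STEE30-M and 9.54 and 9.10 in STEE50-M. *Prkab2*, encoding the β2 that predominates in muscle, read 8.95 and 8.81 in Ctrl-M, 8.64 and 9.18 in STEE30-M and 8.81 and 9.52 in STEE50-M. For both genes every group overlapped every other, STEE50-M having the highest mean. The log2 fold change of STEE50-M against Ctrl-M was 0.18 for *Prkab1* (interval -0.36 to 0.72, adjusted p = 0.997 in limma) and 0.29 for *Prkab2* (interval -0.38 to 0.95, adjusted p = 0.988 in limma). In STEE30-M against Ctrl-M the value was -0.04 for *Prkab1* and 0.03 for *Prkab2*.

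The upstream kinases gave no call. *Stk11*, encoding LKB1, read 11.53 and 11.66 in Ctrl-M, 11.28 and 11.65 in STEE30-M and 11.26 and 11.46 in STEE50-M. Its group means ran downward with dose, and both STEE50-M arrays lay below both Ctrl-M arrays, but STEE30-M overlapped both. The log2 fold change was -0.24 for STEE50-M against Ctrl-M (interval -0.74 to 0.27, adjusted p = 0.982 in limma) and -0.13 for STEE30-M against Ctrl-M (interval -0.64 to 0.38). *Camkk2*, encoding the calcium-dependent kinase, was the member nearest to background, 1.85 above it on the log2 scale. It read 7.11 and 7.29 in Ctrl-M, 7.08 and 7.39 in STEE30-M and 7.23 and 6.97 in STEE50-M, with all groups overlapping and log2 fold changes against Ctrl-M of 0.04 in STEE30-M and -0.10 in STEE50-M.

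**Figure D1:**
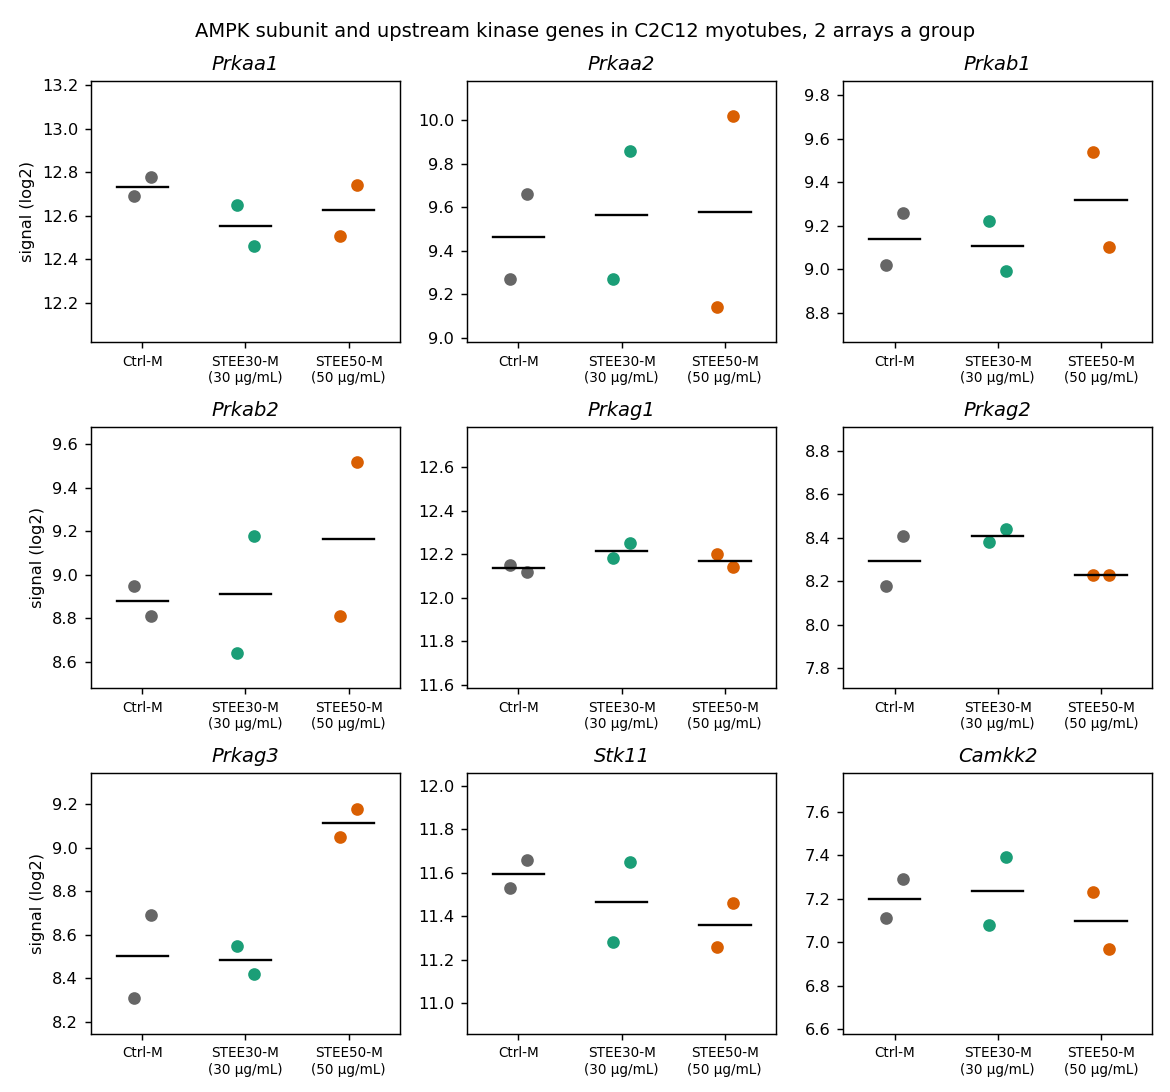
Log2 signal of the 9 genes (y axis, each panel spanning 1.2 log2 units around its own values) in the 3 groups (x axis), with a point for each of 2 arrays and a bar at the group mean. The STEE50-M points of *Prkag3*, at 9.05 and 9.18, lie above its other 4 points, and in every other panel the STEE50-M points overlap at least 1 other group.

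Genes were called here by a p under 0.05 with no adjustment together with a linear fold of at least 1.2. The study's methods word the fold limit as a log2 value. Linear fold changes not far above 1.2 are among those it lists as called, so it was taken here as linear. A stricter limit of 1.2 on the log2 scale was reached by 0 members. For STEE30-M against Ctrl-M, 0 of 9 members met both, beside 4.09% of the 22206 probe sets. For STEE50-M against Ctrl-M, 1 of 9 met both, beside 5.05% of the probe sets, and for STEE50-M against STEE30-M, 1 of 9, beside 4.61%. The fold limit removed nothing that the p had let through. The member was *Prkag3* both times, and a single gene among 9 does not set the members apart from the array as a whole. At an adjusted limma p under 0.05 no member passed in any comparison, and neither did any other probe set (0% called), the smallest adjusted p over all probe sets being 0.998 for STEE30-M against Ctrl-M, 0.952 for STEE50-M against Ctrl-M and 0.997 between the doses. The arrays of the 2 groups did not overlap for 2 of 9 members in each of the 3 comparisons, while this was so for 30.2% of all probe sets in STEE30-M against Ctrl-M, 34.7% in STEE50-M against Ctrl-M and 28.4% between the doses. The comparisons with Ctrl-M share the same 2 control arrays.

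The median log2 fold change of the 9 genes was 0.03 in STEE30-M against Ctrl-M, 0.04 in STEE50-M against Ctrl-M and 0.02 in STEE50-M against STEE30-M, where all probe sets had medians of -0.01 in each. In each comparison 5 of the 9 values were positive and 4 negative. The 95% intervals of single genes, not adjusted for the number of probe sets, reached 0.45 to 0.76 on either side of the estimate on the log2 scale. With 2 arrays a group, true differences smaller than this could easily be missed, and larger ones could be too. Outside *Prkag3*, each of the intervals held 0.

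**Figure D2:**
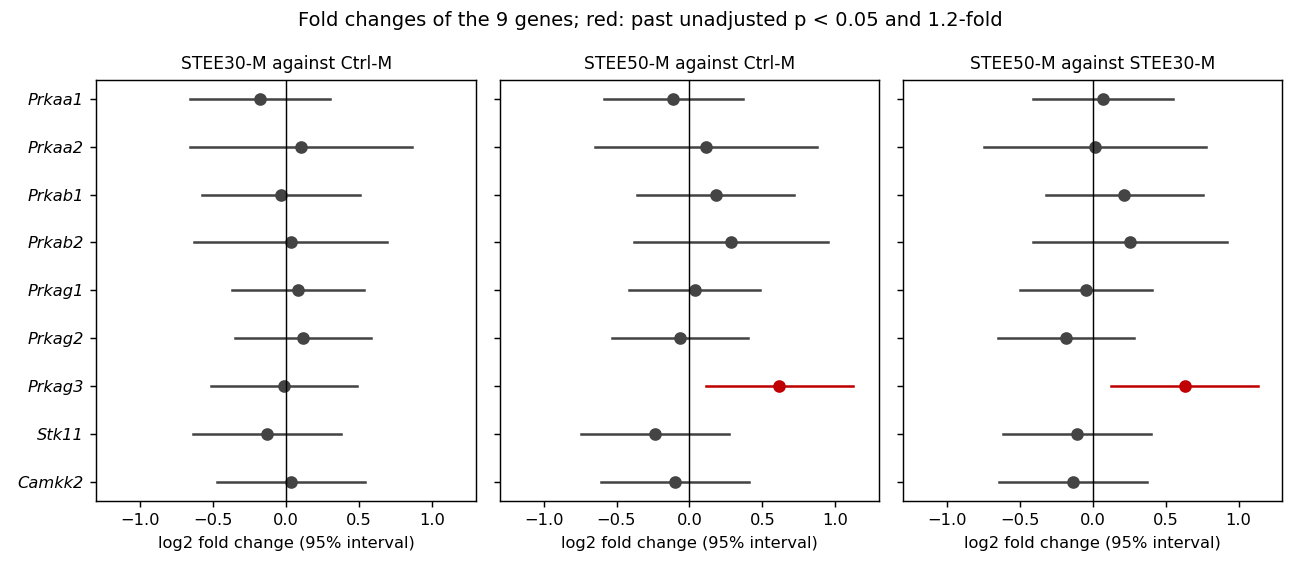
Log2 fold change of the 9 genes (x axis, with the 95% interval as a line) in the 3 comparisons, each in its own panel, with the genes down the y axis. Red marks *Prkag3* at 0.62 and 0.63 in the comparisons of STEE50-M, the only values past the unadjusted thresholds.

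*Prkaa2* varied more between arrays of 1 group than between groups, and its values are set here beside those of the myotube markers. STEE50-M replicate 2 had the highest *Prkaa2* (10.02) and *Prkab2* (9.52) signals of the 6 arrays. The same array had the highest mean log2 signal over the 11 myotube markers, 14.77, against 14.00 in STEE50-M replicate 1, 14.00 and 14.17 in STEE30-M and 13.96 and 14.14 in Ctrl-M. In every group the array with the higher *Prkaa2* signal was also the one with the higher marker mean, replicate 2 each time. Replicate differences kept 1 sign in all 3 groups for 26.0% of all probe sets and 2 of 9 members, *Prkaa2* and *Stk11*. *Prkab2* was higher on replicate 1 in Ctrl-M. The markers of myoblasts or reserve cells averaged 10.34 and 10.25 in Ctrl-M, 10.48 and 10.25 in STEE30-M and 10.48 and 10.24 in STEE50-M. The part of the myotube share of the RNA in these values was not tested.

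For *Prkag3*, 10 of 11 myotube markers had positive log2 fold changes in STEE50-M against Ctrl-M, with a median of 0.40, and 1 of them, the embryonic myosin *Myh3*, passed the unadjusted thresholds (0.64). Without STEE50-M replicate 2, a setting chosen after seeing the data, 6 of 11 were positive, the median was 0.05 and *Myh3*, at 0.37, no longer passed, while the titin gene *Ttn* passed at -1.15. In STEE50-M replicate 1, *Prkag3* read 9.05 and the marker mean was 14.00, a mean within the range of the Ctrl-M and STEE30-M arrays. Single markers differed from that mean. On this array *Myh3* (17.13) and *Cav3* (8.90) lay above all Ctrl-M and STEE30-M arrays. *Ttn* (11.26), *Myh8* (16.17) and *Ckm* (10.98) lay below all of them, and the other markers lay within their range. The part of the myotube share in the *Prkag3* difference was not tested.

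**Figure D3:**
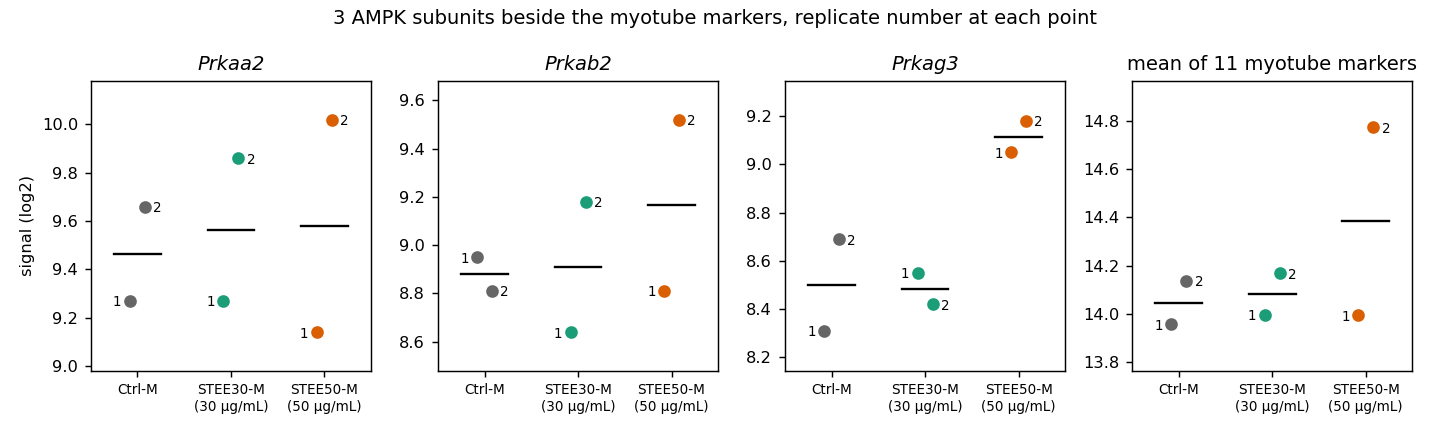
Log2 signal (y axis, 1.2 units in each panel) of *Prkaa2*, *Prkab2*, *Prkag3* and the mean of 11 myotube markers in the 3 groups (x axis), with the replicate number beside each point and a bar at the group mean. STEE50-M replicate 2 is the highest point of all 4 panels, and among these panels STEE50-M replicate 1 is high for *Prkag3* alone. Single markers, such as *Myh3* and *Ttn*, differed from the mean of the markers on that array.

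The genes whose pattern over the 6 arrays was most like that of a member were found by Pearson correlation of log2 signals among 11579 probe sets above background with 1 gene symbol. For *Prkaa1* they were *Larp1* (0.996), *Pes1* (0.990) and *Flot2* (0.987). For *Prkaa2* they were *Dtx2* (0.994), *Hbp1* (0.986) and *Abca3* (0.984), and for *Prkag3* they included *Fry* (0.985) and *Nedd9* (0.980). A correlation above 0.9 was found with *Prkaa1* for 1.05% of the probe sets compared, with *Prkaa2* for 1.42% and with *Prkag3* for 0.76%. *Larp1*, which encodes an RNA-binding regulator of ribosomal protein mRNAs, read 13.43 and 13.58 in Ctrl-M, 13.37 and 13.13 in STEE30-M and 13.20 and 13.54 in STEE50-M, again with overlap between STEE50-M and the other groups. Of the 36 pairs among the 9 genes, the highest correlation over the same 6 arrays was that of *Prkaa2* with *Prkab2* (0.82) and the lowest that of *Prkaa1* with *Prkag1* (-0.97), with a median of 0.01 over the pairs. Over these arrays *Prkaa1* spanned 0.32 and *Prkag1* 0.13 on the log2 scale.

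The wider pathway was described by 6 lists holding 66 distinct genes, all on the array. None of 6 upstream partners, which included the LKB1 cofactors *Strada* and *Cab39*, passed the unadjusted thresholds in any comparison. The same held for 9 regulators, among them the folliculin complex, the sestrins and phosphatases that act on AMPK, and for 12 related kinases that LKB1 also activates. The related kinases had a median log2 fold change of 0.14 in STEE30-M against Ctrl-M and 0.25 in STEE50-M against Ctrl-M. The latter was the largest of the 6 list medians at the higher dose. Only 9 of these 12 kinases were above background, and the medians cover all 12. *Sik1*, a salt-inducible kinase of that list named after its values were seen, read 12.41 and 12.42 in Ctrl-M, 12.63 and 13.12 in STEE30-M and 12.70 and 13.35 in STEE50-M. All 4 treated arrays lay above both Ctrl-M arrays, with log2 fold changes of 0.46 and 0.61 that did not pass (for STEE50-M, interval -0.02 to 1.24). The arrays were apart for 30.2% of all probe sets in STEE30-M against Ctrl-M and 34.7% in STEE50-M against Ctrl-M. Such separation ran both ways in the lists. For *Tfam*, a downstream muscle gene, all 4 treated arrays lay below both Ctrl-M arrays (-0.29 and -0.48, not passed, for STEE50-M interval -0.96 to 0.004). Over the 66 genes, 1 passed in STEE30-M against Ctrl-M (1.52%, beside 4.09% of all probe sets), 3 in STEE50-M against Ctrl-M (4.55%, beside 5.05%) and 4 in STEE50-M against STEE30-M (6.06%, beside 4.61%). The smallest adjusted limma p among them was 0.952.

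Of 21 genes for AMPK substrates, 3 passed the unadjusted thresholds in STEE50-M against STEE30-M, all lower in STEE50-M, where 4.61% of all probe sets passed and no adjusted p was under 0.05. Over the list, 7 values were positive and 13 negative, with a median of -0.04. *Acaca*, encoding acetyl-CoA carboxylase 1 of fatty acid synthesis, read 10.92 and 10.97 in Ctrl-M, 11.22 and 11.04 in STEE30-M and 10.61 and 10.43 in STEE50-M. The doses thus lay on opposite sides of Ctrl-M, and their difference was -0.61 (standard error 0.21, interval -1.08 to -0.14, adjusted p = 0.997 in limma). *Pfkfb3*, encoding an enzyme that makes the glycolytic activator fructose 2,6-bisphosphate, read 7.15 and 7.72 in Ctrl-M, 7.99 and 7.65 in STEE30-M and 7.13 and 7.30 in STEE50-M, a difference of -0.61 between the doses (interval -1.19 to -0.02). The *Acaca* call was lost if STEE30-M replicate 1 or STEE50-M replicate 2 was left out (-0.52 for each), and that of *Pfkfb3* under the unmoderated test and if STEE30-M replicate 1 (-0.44), STEE50-M replicate 1 (-0.52) or STEE50-M replicate 2 (-0.69) was.

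*Eef2k*, encoding the kinase that inhibits translation elongation, read 9.05 and 9.30 in Ctrl-M, 9.03 and 9.37 in STEE30-M and 8.76 and 8.54 in STEE50-M. Both STEE50-M arrays lay below the other 4. Its log2 fold change was -0.53 against Ctrl-M (interval -1.04 to -0.01) and -0.55 against STEE30-M (interval -1.07 to -0.03), and it was the only substrate to pass in STEE50-M against Ctrl-M. The call against Ctrl-M was lost with a fold of 1.5, median centring or the unmoderated test, and when any 1 of the 4 arrays compared was left out (log2 fold changes of -0.65 to -0.40). The call against STEE30-M was lost with a fold of 1.5, the unmoderated test or the 4 arrays compared alone, and with any array but STEE30-M replicate 1 left out (-0.66 to -0.38).

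Among 9 enzymes of adenylate metabolism, *Ak4*, encoding a mitochondrial adenylate kinase, read 6.19 and 6.49 in Ctrl-M, 6.32 and 6.25 in STEE30-M and 5.63 and 5.83 in STEE50-M. It was lowest on both STEE50-M arrays, with log2 fold changes of -0.61 against Ctrl-M (interval -1.10 to -0.12, adjusted p = 0.952 in limma) and -0.56 against STEE30-M (interval -1.05 to -0.07). The 6-array mean of *Ak4* lay only 0.79 above the background level. The call against Ctrl-M was lost if Ctrl-M replicate 2 (-0.46) or STEE50-M replicate 1 (-0.51) was left out. That against STEE30-M was lost if either STEE30-M array (-0.52 and -0.59) or STEE50-M replicate 1 (-0.46) was, with a fold of 1.5 and with a prior following the signal. *Ampd1*, encoding the AMP deaminase of skeletal muscle, passed in STEE30-M against Ctrl-M at 0.66, but all 6 arrays read 3.53 to 4.70, below the background level, and leaving out any array except STEE30-M replicate 2 ended the call (0.30 to 0.81). It was also lost with the unmoderated test (unadjusted p of 0.132) and with the arrays of those groups compared alone (unadjusted limma p of 0.0573). *Ak1*, the cytosolic adenylate kinase of muscle, overlapped between the groups at 14.10 to 14.41.

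Of 10 downstream muscle genes, *Cpt1b*, encoding the mitochondrial fatty acid importer, passed in STEE50-M against Ctrl-M at -0.63, with all 6 arrays below background (4.07 to 5.17). Its call was lost if Ctrl-M replicate 2 (-0.39) or STEE50-M replicate 1 (-0.41) was left out, and with median centring, quantile normalization, the unmoderated test or a prior following the signal. *Ppargc1a*, which encodes PGC-1α, a coactivator of mitochondrial genes and itself a substrate, read 6.20 and 6.43 in Ctrl-M, 6.65 and 6.36 in STEE30-M and 6.70 and 6.80 in STEE50-M. Both STEE50-M arrays were above the other 4, and its log2 fold change against Ctrl-M was 0.44 (interval -0.06 to 0.93, unadjusted limma p of 0.0772), short of the threshold. STEE30-M overlapped Ctrl-M at 0.19 (interval -0.30 to 0.68).

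**Figure D4:**
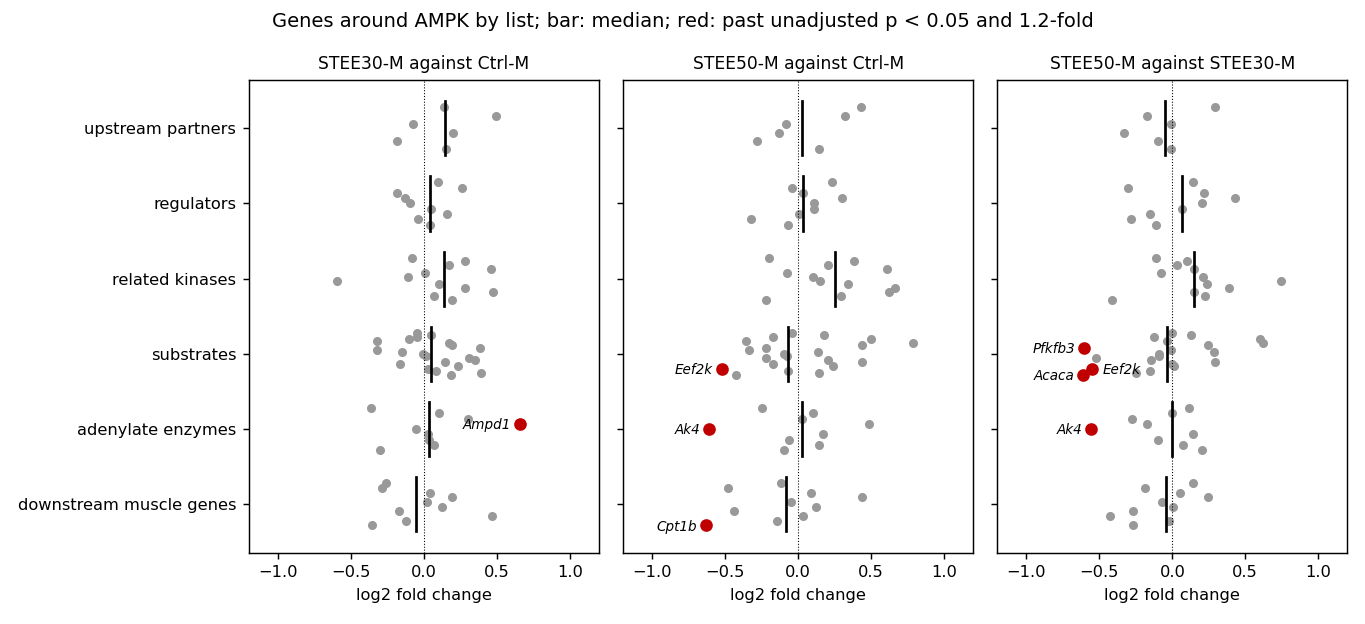
Log2 fold change (x axis) of each gene in the 6 pathway lists (y axis) in the 3 comparisons, a point a gene, with a bar at the list's median. Red points, named, passed the unadjusted thresholds: 1 in STEE30-M against Ctrl-M, 3 in STEE50-M against Ctrl-M and 4 between the doses, and 2 of these genes, *Ampd1* and *Cpt1b*, were below background.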

How the data were processed

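The authors made the deposited log2 signals by SST-RMA (probe signals corrected for GC content and scaled, RMA background, quantile normalization, then median polish), with mm10 annotation, and rounded them to 2 decimals. The software was taken to be Expression Console 1.4.1.46, while the paper names Transcriptome Analysis Console. The deposited group averages in log2 have a narrower spread (SD over probe sets of 2.23, against 3.39 for the averaged array values) and are not these signals rescaled. *Prkag2* in STEE50-M minus Ctrl-M was 0.08 in them, against -0.065 from the arrays. *Camkk2* in STEE30-M minus Ctrl-M was -0.04, against 0.035. The other differences of the members from Ctrl-M kept their sign. Tables of the authors' own fold changes and p-values were not used. Of 28846 rows, 6640 control rows were left out, leaving 22206 probe sets.

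Group means over all 6 arrays were fitted with limma 3.58.1 in R 4.3.3 (lmFit, eBayes; 3 residual and 5.75 prior degrees of freedom; two-sided), with Benjamini-Hochberg adjustment over all probe sets and 95% intervals. The fit was tested on simulated data. Calls used the study's thresholds as read here (unadjusted p under 0.05, and a fold limit of 1.2 that its methods word as log2, taken as linear). The limit was applied to the array values, whose spread is wider than that of the deposited group averages. It need not filter here as it did in the study. Pathway genes with several probe sets were read from the brightest. Named genes were all 9 members, every pathway gene past these thresholds, the genes most like *Prkaa1*, *Prkaa2* and *Prkag3* over the arrays, and *Ppargc1a*. The genes *Sik1*, *Tfam*, *Myh3*, *Myh8*, *Cav3*, *Ckm* and *Ttn* were added after their values were seen, with *Strada*, *Cab39*, *Ak1* and *Pax7* named as examples. Members, lists and tests were chosen with earlier results of these data known. Alternatives were the arrays compared alone, an unmoderated test, a prior following the signal, quantile normalization, median centring, only probe sets above background, the replicate number as a block, a fold of 1.5 and each array left out. The number of arrays limits the precision. Start windows are from RefSeq (GRCm38.p6). A gene among those most like *Prkag3* is not reported here. HepG2 arrays were not analysed here.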

Additional observations from a re-analysis of the deposited data

Results flagged for a closer look

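The difference between the doses, STEE50-M minus STEE30-M, passed the unadjusted thresholds for 1 of 9 members and 4 of 66 pathway genes, beside 4.61% of all probe sets, and for none at an adjusted p under 0.05. *Prkag3* had a log2 difference of 0.63 and was the member. *Acaca* had a difference of -0.61, and its arrays at the doses lay on opposite sides of both Ctrl-M arrays. *Pfkfb3* had a difference of -0.605, *Ak4*, which lay near background, of -0.555 and *Eef2k* of -0.55.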

How the results depend on the processing

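Of 378 values of the 9 members under 14 alternatives, 374 kept their side of the unadjusted thresholds, 4 lost the call and none gained one. The 4 were *Prkag3* in STEE50-M against Ctrl-M without Ctrl-M replicate 1 (0.43) or STEE50-M replicate 2 (0.55), and against STEE30-M without STEE30-M replicate 2 or STEE50-M replicate 2 (0.57 for each). With an array left out, the members passed in 0 to 1 case in both STEE50-M comparisons and 0 in STEE30-M against Ctrl-M. A further 30 uncalled values changed sign, 27 of them with an array left out. The members' median ranged from -0.10 to 0.12 in STEE30-M against Ctrl-M, -0.08 to 0.05 in STEE50-M against Ctrl-M and -0.08 to 0.08 between the doses with an array left out.

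Pathway genes passing in STEE30-M against Ctrl-M numbered 0 instead of 1 with probe sets above background or with the arrays compared alone, and 0 to 3 with an array left out. In STEE50-M against Ctrl-M they numbered 5 instead of 3 above background, with the arrays compared alone, after quantile normalization and with the unmoderated test, 8 with the prior following the signal, 1 after median centring and 1 to 5 with an array left out. Between the doses they numbered 2 instead of 4 with a fold of 1.5 or the unmoderated test and 1 to 6 with an array left out. The cause was not tested. A stricter limit of 1.2 on the log2 scale was, like the authors' averages, an alternative chosen after seeing the data. With it, 0 members and 0 pathway genes passed in any comparison.

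Replicate numbers did not pair the samples: same-numbered deviations correlated at -0.01 to 0.06. With the replicate block, *Prkag3* stayed at 0.62 in STEE50-M against Ctrl-M (unadjusted limma p 0.0272), and pathway genes numbered 1 in STEE30-M against Ctrl-M, 4 in STEE50-M against Ctrl-M and 3 between the doses, the calls of *Eef2k* against Ctrl-M and *Pfkfb3* between the doses being lost.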
